A study of Mus musculus with 8 samples.

Results

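Chromatin loops, topologically associating domains (TADs) and CTCF binding sites were examined at 8 genes of the TALE homeobox class, Meis1, Meis2, Meis3, Pbx2, Pbx3, Pbx4, Pknox1 and Pknox2, in mouse ES cells and in the newborn lens. These 8 genes were taken from 20191 protein-coding genes of at least 1 kb. For each gene the features were those at its gene body (GRCm38.p6) widened by 5 kb on each side: loops with an anchor overlapping it, TADs touching it and CTCF peaks in it. Lens epithelium and lens fiber cells were microdissected from CD-1 mice at postnatal day 0.5, with 30 lenses pooled in each of 2 Hi-C replicates. The ES cells were the WT v6.5 mESC line, grown without feeders on gelatin with LIF, also in 2 replicates. All Hi-C samples were fixed with 2.0% formaldehyde, and none carried a mutation or a treatment that the labels name. CTCF ChIP-seq was performed on lens epithelium and lens fiber cells microdissected from 200 pooled CD-1 lenses of the same age, and CTCF in ES cells was not analysed here. The files hold no expression values, so that the purity of the microdissected tissues could not be checked against marker genes.

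TALE proteins carry a homeodomain with an extended loop between its helices, and they act mainly in complexes. Meis and Pknox proteins (the latter also known as Prep) pair with Pbx proteins, and the pairs bind DNA alone or with Hox proteins. In the eye, Meis1 and Meis2 are known as regulators of Pax6, the paired-box gene needed to form the lens. CTCF is a zinc-finger protein that, with cohesin, holds many loop anchors and domain borders.

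The authors merged both replicates of each cell type before calling, so that each value below comes from 1 list per cell type without replicate error. Cell types were therefore not tested against each other. In all, 8459 loops were listed in ES cells, 8005 in epithelium and 7682 in fiber cells. The lists also held 3604, 1796 and 2641 TADs in the same order, and 16433 CTCF peaks in epithelium and 23868 in fiber cells. For each loop the observed contacts are a raw count, and the expected contacts come from a donut-shaped surrounding of the loop in the same map. Their ratio is called the contact enrichment here. The 95% intervals are exact Poisson intervals of the observed count with the expected count held fixed, and cover counting error only. The total depth of the maps was not used here. A feature missing from a list was not called, which does not show that the contact or the binding was absent.

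The TALE genes had 16 loops in ES cells, 15 in epithelium and 8 in fiber cells. In ES cells 4 genes had a loop, in epithelium 6 and in fiber cells 4. Meis2 had 9, 5 and 3 loops in ES cells, the epithelium and fiber cells, the highest count of the 8 genes in the first 2 lists and level with Meis1 in fiber cells. Meis1 had 3 loops in every list, Meis3 had 1 in every list, and Pknox2 had 3, 2 and 1. Pbx3 and Pknox1 had loops in epithelium alone, with 3 and 1, and Pbx2 and Pbx4 had none in any list.

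Long genes meet more anchors, so that the genes were read against all genes of their length class. Meis1, Meis2, Pbx3 and Pknox2 are longer than 100 kb. Of these 4, 3 had a loop in ES cells, 4 in epithelium and 3 in fiber cells, beside 67.2%, 76.3% and 74.9% of all 2427 genes of at least 100 kb. Of the 4 shorter members, 1, 2 and 1 had a loop, beside 35.5%, 33.0% and 31.2% of shorter genes. The members with a loop were thus about as frequent as in their length class. The median size at these genes was 592.5 kb in ES cells, 375 kb in epithelium and 185 kb in fiber cells, where the whole lists had medians of 220, 250 and 270 kb. This order depended on the limit of 5 kb around the gene, since with genes widened by 25 kb the medians were 525, 550 and 800 kb over 23, 19 and 16 loops.

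**Figure D1:**
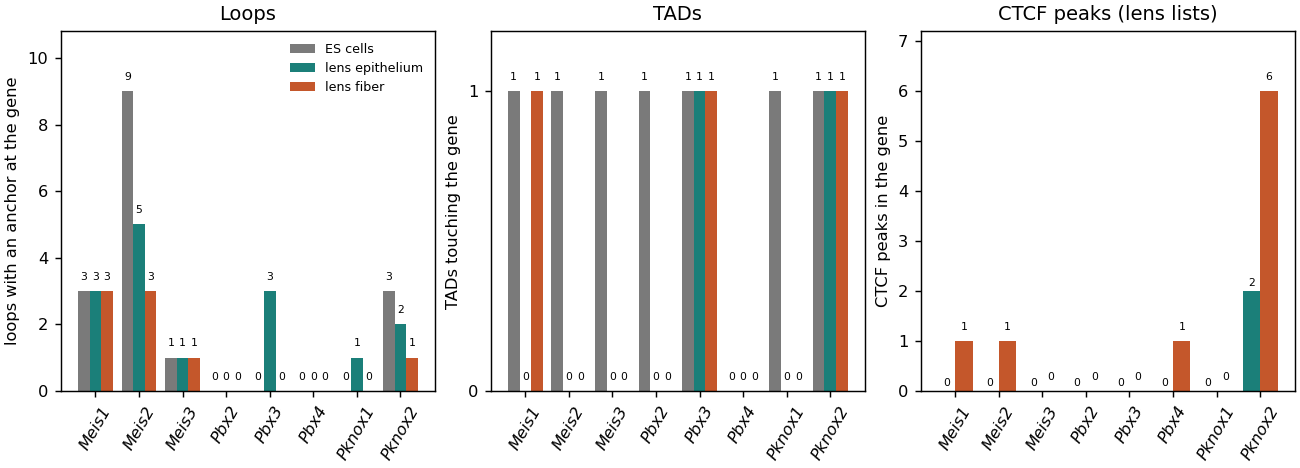
Number of loops with an anchor at each TALE gene (left), TADs touching it (middle) and CTCF peaks in it (right), by deposited list. Each bar is 1 list, grey for ES cells, green for epithelium and orange for fiber cells. Meis2 has 9, 5 and 3 loops, level with Meis1 in fiber cells, ES cells have a TAD at 7 of 8 genes, and 6 of the 9 fiber peaks lie in Pknox2.

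Meis1, on the minus strand of chromosome 11 (chr11:18880428-19019651, 139224 bp), encodes a Pbx partner known from blood stem cells and the developing eye. A loop between its ends was listed in all 3 cell types. In ES cells this loop spanned 140 kb, with 155 observed contacts and a contact enrichment of 12.1 (95% interval 10.3 to 14.2). In epithelium it spanned 135 kb, with 24 contacts and an enrichment of 5.15 (3.30 to 7.66). In fiber cells it also spanned 135 kb, with 40 contacts and an enrichment of 5.37 (3.84 to 7.32). The ES cell value lay above both lens values with no overlap of the counting intervals.

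The remaining loops counted at Meis1 left the gene from its 5′ end in ES cells and, except for 1 inside the gene, from its 3′ end in the lens. A loop of 2.99 Mb, with 29 contacts and an enrichment of 21.1 (14.1 to 30.3), reached an anchor at chr11:22000001-22010000 that overlapped Otx1, a homeobox gene of the forebrain and sense organs, and Ehbp1, which links endocytosis to actin. Its enrichment was the highest among the loops counted at these 8 genes. A loop of 1.53 Mb ran across the gene to an anchor without a protein-coding gene, with 24 contacts and an enrichment of 5.14. In epithelium, 2 loops of 875 and 650 kb left from the 3′ end, across the gene, with enrichments of 2.64 and 2.07. In fiber cells a loop of 890 kb left from the 3′ end, with an enrichment of 3.69, and a loop of 60 kb with 73 contacts stayed inside the gene, with an enrichment of 2.127 and the largest of its 4 FDR values at 0.0944. The loops of 875 and 890 kb ended at overlapping anchors. Their far anchors held a CTCF peak of their own cell type about 741 kb beyond the gene, with a fold enrichment of 9.04 in epithelium and 7.95 in fiber cells.

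The limit of 5 kb around the gene mattered here. When genes were widened by 25 kb, 7 further loops entered in ES cells, 4 in epithelium and 8 in fiber cells, and all 8 fiber loops lay at Meis1 or Meis2 with anchors 5.35 to 7.46 kb from the gene. At Meis1 these included an ES cell loop of 3.13 Mb from just beyond the 3′ end to Otx1, with 15 contacts and an enrichment of 32.3. They also included lens loops of 875 and 725 kb from just beyond the 5′ end, with enrichments of 2.66 and 2.48 in epithelium and 2.36 and 2.45 in fiber cells. The difference between the ends of Meis1 therefore did not hold beyond the limit of 5 kb.

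Meis2, on the minus strand of chromosome 2 (chr2:115861264-116067537, 206274 bp), encodes a Meis1 relative needed in lens, retina and neural crest. It also had a loop between its ends in every list. In ES cells this loop spanned 205 kb with 120 contacts and an enrichment of 9.12 (7.56 to 10.9). In epithelium it had the same anchors, with 26 contacts and an enrichment of 4.87 (3.18 to 7.14). In fiber cells it spanned 210 kb, with 29 contacts and an enrichment of 4.69 (3.14 to 6.74). As at Meis1, the ES cell interval lay above both lens intervals.

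A loop between the ends of a gene was uncommon. It was listed for 1.98% of genes of at least 100 kb in ES cells, 2.27% in epithelium and 2.8% in fiber cells, and for 2 of the 4 long TALE genes, Meis1 and Meis2, in every list. This rule was written after the loops of Meis1 and Meis2 had been seen, so that the counts are a description. In ES cells the enrichment was 2.35 times that in epithelium at Meis1 (95% interval 1.52 to 3.78) and 1.87 times at Meis2 (1.22 to 2.98). Against fiber cells the ratios were 2.25 (1.58 to 3.28) and 1.94 (1.29 to 3.02). These intervals come from the exact binomial interval of the ES cell share of both counts, with the expected counts held fixed. Among all loops with 5 kb anchors shared with ES cells, the median ratio was 0.860 over 869 loops for epithelium and 0.993 over 777 loops for fiber cells. The ratio at Meis1 exceeded 99.7% and 99.0% of these loops, and that at Meis2 99.2% and 98.5%. The anchors at the 5′ end were in neighbouring bins rather than the same bin in ES cells and both lens lists at Meis1, and in ES cells and fiber cells at Meis2.

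**Figure D2:**
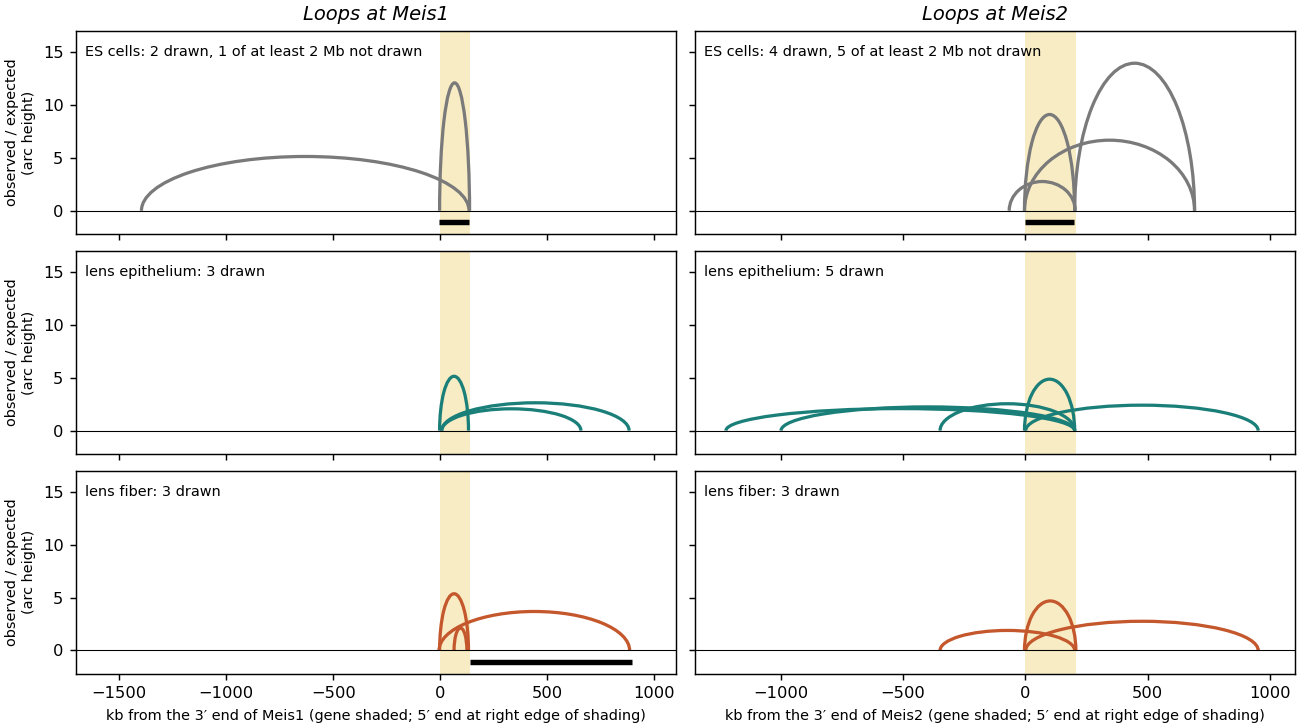
Loops below 2 Mb at Meis1 (left) and Meis2 (right) in ES cells, the epithelium and fiber cells (top to bottom), by distance in kb from the 3′ end of the gene, which is shaded. The height of an arc is its observed over expected contacts and black bars are TADs. The arcs between both gene ends are higher in ES cells (12.1 and 9.12) than in the lens lists (4.69 to 5.37), and 4 of 9 ES cell loops of Meis2 are short enough to be drawn.

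The promoter windows of Meis1 and Meis2 are shown, since most ES cell loops of both genes had them inside an anchor, and neither lens list had a CTCF peak within 1 kb of them. At Meis1 a fiber peak (chr11:19020394-19020581) lay just outside this limit, with its summit 0.816 kb beyond the 5′ end of the gene. RefSeq promoter windows, from 250 bases before to 50 bases after a start site, matched 5 of the 8 genes (Meis1, Meis2, Meis3, Pbx2 and Pbx4). The windows of Meis1 (GRCm38.p6, chr11:19018920-19019219, minus strand) and Meis2 (GRCm38.p6, chr2:116064570-116064869, minus strand) are printed 5′ to 3′, with CG dinucleotides in capitals.
Meis1: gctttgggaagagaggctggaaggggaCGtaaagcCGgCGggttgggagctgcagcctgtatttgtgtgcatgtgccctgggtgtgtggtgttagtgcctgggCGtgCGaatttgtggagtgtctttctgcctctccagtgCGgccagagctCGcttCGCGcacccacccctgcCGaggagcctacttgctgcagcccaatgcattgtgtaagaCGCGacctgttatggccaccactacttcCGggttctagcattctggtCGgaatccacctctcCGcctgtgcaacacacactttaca
Meis2: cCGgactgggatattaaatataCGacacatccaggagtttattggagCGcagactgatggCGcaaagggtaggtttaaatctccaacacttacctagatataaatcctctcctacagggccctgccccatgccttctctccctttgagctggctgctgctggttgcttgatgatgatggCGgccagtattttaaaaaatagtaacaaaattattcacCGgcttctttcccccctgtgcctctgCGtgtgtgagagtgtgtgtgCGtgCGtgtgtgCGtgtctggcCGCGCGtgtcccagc
The Meis1 window held 15 CG dinucleotides and the Meis2 window 13, where the median over 32851 promoter windows of this length was 7. The numbers vary widely between windows, and 65.4% and 62.1% of all windows held fewer than these 2, so that neither stood out. Meis3, Pbx2 and Pbx4 held 21, 29 and 19. The letters TGACAG, a core bound by Meis and Pknox proteins, and TGATTGAC, the start of a composite site of Pbx with Meis or Pknox that overlaps the former in TGAC, were searched on both strands. Neither was in any of the 5 windows, and 19.2% and 0.770% of all windows held them.

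In ES cells, 3 of 3 loops of Meis1 and 8 of 9 loops of Meis2 had the promoter window inside an anchor. In epithelium 0 of 3 and 4 of 5 did, and in fiber cells 0 of 3 and 1 of 3. The share of loops with a promoter window in an anchor was not computed over all genes. The loops are also not separate observations, since the 5 ES cell loops of Meis2 over 1 Mb all used the same 25 kb anchor. At Meis1 the lens anchors of the loop between its ends stopped at 19015000, and the ES cell anchor began at 19015001, so that a step of 1 bin of 5 kb decided whether the window was counted.

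The 4 longest loops at these 8 genes were all loops of Meis2 in ES cells. An anchor of 25 kb at the 5′ end of the gene (chr2:116050001-116075000) was joined to 5 distal anchors on the same chromosome. The loop of 41.4 Mb ended in the HoxD cluster, over Hoxd12, Hoxd11, Hoxd10 and Hoxd9, which pattern limbs and the body axis, with 18 contacts and an enrichment of 10.9 (6.44 to 17.2). The loop of 31.1 Mb ended at Nkx2-2, a homeobox gene of the ventral neural tube and pancreas, with 17 contacts and an enrichment of 12.4 (7.21 to 19.8). A loop of 10.9 Mb ended at Wt1, a zinc-finger gene of kidney and gonad, with 13 contacts and an enrichment of 9.55 (5.08 to 16.3). A loop of 10.4 Mb ended at Pax6 and its neighbour Elp4, whose introns are known to hold Pax6 enhancers, with 21 contacts and an enrichment of 11.3 (6.98 to 17.2). The shortest of the 5, of 2.65 Mb, ended at Ankrd63 and Plcb2, the latter a phospholipase gene, with 17 contacts and an enrichment of 6.16 (3.59 to 9.86). All 5 rest on 21 contacts or fewer, and their intervals overlap each other.

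Some of the same distal anchors were also joined to each other. The 5 anchors were picked because the ES cell list joins them to Meis2, so that these 5 pairs had a loop there by choice and the pairs give no comparison of ES cells with the lens. Among the 10 pairs without Meis2, 2 had a loop in ES cells. The HoxD anchor was joined to Pax6 over 31.0 Mb with 27 contacts, and to Wt1 over 30.5 Mb with 14 contacts. When the anchors were widened by 25 kb, an alternative chosen after the data were seen, a loop of 545 kb between Wt1 and Pax6 with 31 contacts was added. The lens lists held no loop for any of the 15 pairs at either width.

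**Figure D3:**
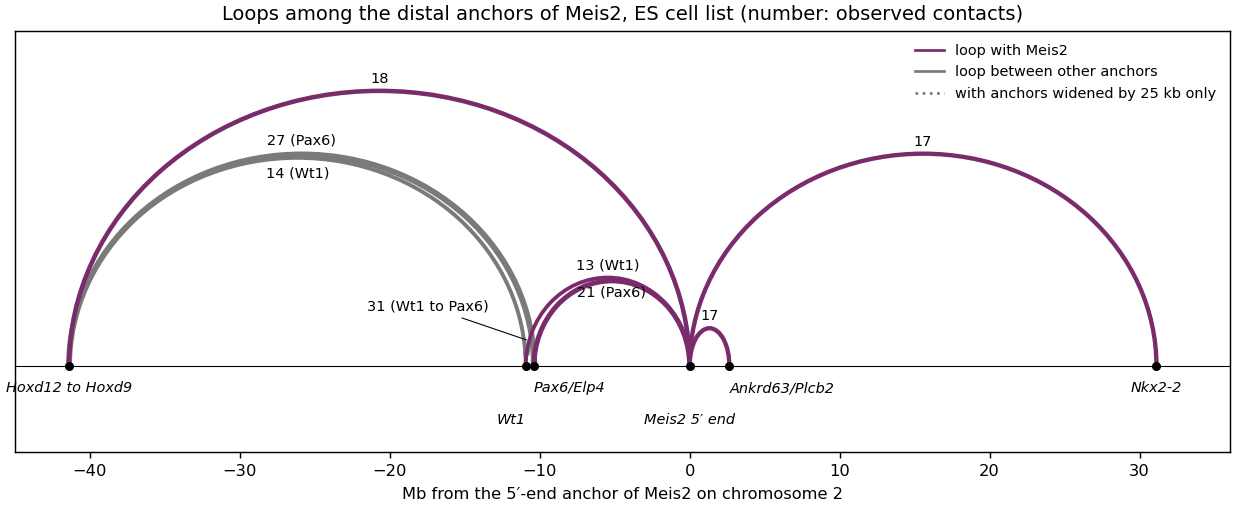
Loops of the ES cell list among the 25 kb anchor at the 5′ end of Meis2 and its 5 distal anchors on chromosome 2, by distance in Mb from Meis2. Arc height grows with distance and carries no measurement, line width and the printed number give the observed contacts, and the dotted arc appears with anchors widened by 25 kb. The distal loops of Meis2 span 2.65 to 41.4 Mb, and the HoxD anchor also meets Pax6 and Wt1.

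Nearer to Meis2, ES cells had a loop of 490 kb from the 5′ end to an anchor without a protein-coding gene, with 47 contacts and an enrichment of 13.97 (10.3 to 18.6), the highest of this gene. Its distal anchor was also joined to the 3′ end by a loop of 695 kb with 17 contacts and an enrichment of 6.68. A loop of 270 kb from the 5′ end had 40 contacts and an enrichment of 2.77. Both lens lists held other loops. A loop of 950 kb from the 3′ end had 54 contacts and an enrichment of 2.41 in epithelium, and 83 contacts and an enrichment of 2.77 in fiber cells. A loop of 550 kb from the 5′ end had 89 contacts (2.55) and 91 contacts (1.90). Epithelium also had loops of 1200 and 1425 kb from the 5′ end, the latter to Dph6, a gene of diphthamide synthesis, with enrichments of 2.25 and 2.08. Fiber cells had loops of 1250 and 1450 kb whose midpoints lay within 25 kb of these, with enrichments of 2.497 and 2.24, but their near anchors began 7.46 kb beyond the gene. Of the 4 long members, 2, 1 and 0 had a loop over 1 Mb in ES cells, the epithelium and fiber cells, where 6.63%, 10.9% and 11.7% of genes of at least 100 kb did. In ES cells these were Meis1 and Meis2, and in epithelium Meis2. The counts of epithelium and fiber cells depended on the limit of 5 kb. At 25 kb an epithelium loop of 1175 kb entered at Meis1, and 4 of the 8 fiber loops that entered spanned over 1 Mb.

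Meis3 (chr7:16174012-16186510, 12499 bp, plus strand), a Meis gene of the hindbrain, had 1 loop in each list and all 3 were shared. It joined the region just beyond the gene to the C5ar1 locus, which encodes the receptor of a complement peptide. It spanned 65 kb in ES cells, 70 kb in epithelium and 60 kb in fiber cells. The enrichment was 3.17 (2.27 to 4.32) with 40 contacts in ES cells, 3.995 (2.90 to 5.36) with 44 contacts in epithelium and 2.25 (1.63 to 3.01) with 44 contacts in fiber cells. The 3 intervals overlapped. The anchors were 5 kb wide in ES cells and 10 kb wide in both lens lists, so that contacts and enrichments were measured at unequal widths. The C5ar1 gene body overlapped the far anchor in ES cells and fiber cells, and lay 0.460 kb from it in epithelium.

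Among the Pbx genes, which encode the partners of Meis and Pknox, only Pbx3 (chr2:34171457-34372045, 200589 bp) had loops, and only in epithelium. Its 3 loops spanned 275, 425 and 375 kb, with 100, 81 and 95 contacts and enrichments of 2.17, 2.14 and 2.00. All 3 had anchors of 25 kb and lay below the list's median enrichment of 3.05. Pbx2 (chr17:34592259-34597400, 5142 bp), the shortest member, and Pbx4 (chr8:69832476-69872292, 39817 bp), known mainly from testis, had no loop in any list. The Pknox genes, or Prep genes, compete with Meis for Pbx. Pknox1 (chr17:31564722-31607693, 42972 bp) had 1 loop, of 70 kb in epithelium, to the splicing factor gene U2af1, with 43 contacts and an enrichment of 2.31 (1.67 to 3.11). The largest of its 4 FDR values was 0.0564.

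Pknox2 (chr9:36890979-37147342, 256364 bp) was the longest member and held most of the CTCF peaks. Its loops met at 1 place inside the gene, near chr9:36960001-36980000. In ES cells, loops of 70, 180 and 260 kb left from there with 133, 91 and 79 contacts and enrichments of 2.14, 1.86 and 2.07. In epithelium, loops of 180 and 260 kb had 60 and 44 contacts and enrichments of 2.58 (1.97 to 3.32) and 3.30 (2.40 to 4.44). In fiber cells a loop of 160 kb had 68 contacts and an enrichment of 2.25 (1.75 to 2.85). The loops of 260 kb ended at Slc37a2, a sugar-phosphate transporter gene, in both lists that held them, and in ES cells also at Tmem218, a gene of primary cilia. The 2 loops of epithelium were shared with ES cells, whereas the fiber loop matched loops of both other lists when midpoints could differ by 25 kb instead of 10 kb.

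**Figure D4:**
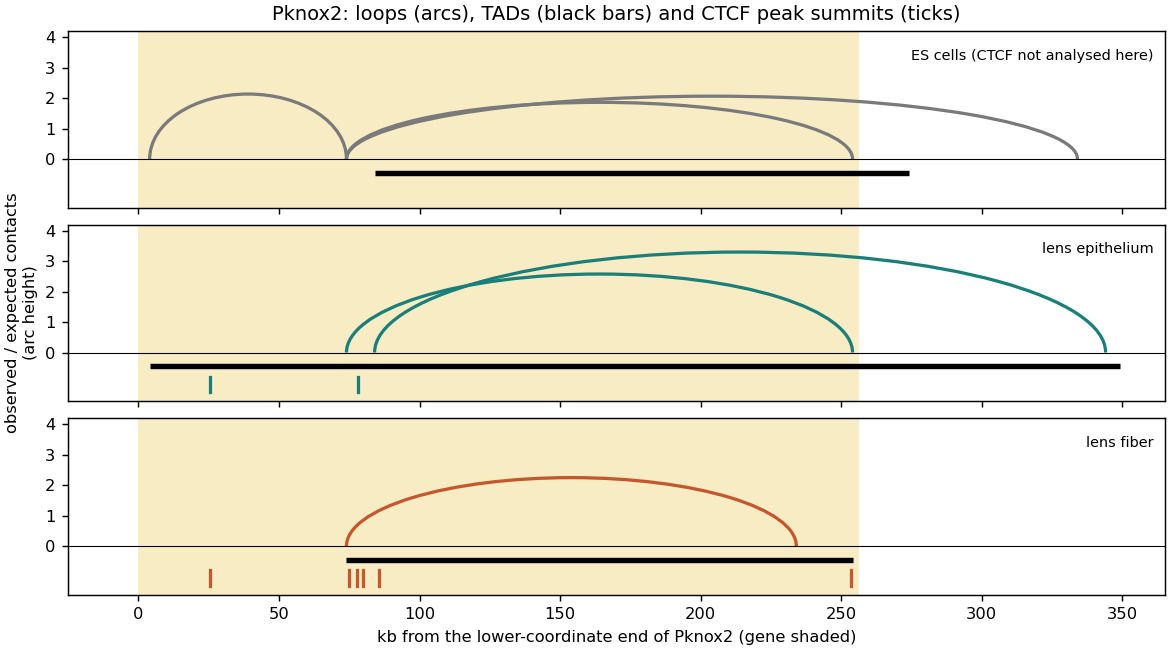
Loops (arcs, with height giving observed over expected contacts), TADs (black bars) and CTCF peak summits (ticks, lens lists) at Pknox2, by distance in kb from its lower-coordinate end, with the gene shaded. Epithelium has 2 peaks and fiber cells have 6, of which 4 lie between 75.0 and 85.7 kb, beside the place inside the gene where the loops of all 3 lists meet.

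Across all members, a loop counted as shared if another list held a loop whose anchor midpoints each differed from its own by 10 kb at most. Of the 16 ES cell loops, 11 were in no lens list, 5 were in the epithelium list, 3 in the fiber list and 3 in both. Of the 15 epithelium loops, 5 were shared with fiber cells, 5 with ES cells, 3 with both and 8 with neither. Of the 8 fiber loops, 5 were shared with epithelium, 3 with ES cells, 3 with both and 3 with neither. The 3 loops found everywhere were those between the ends of Meis1 and of Meis2 and the Meis3 loop. With the tolerance raised to 25 kb, 9 of 15 epithelium loops matched a fiber loop. The share of all loops of a list that another list held was not computed. These counts therefore describe the loops at these genes and do not set them apart from other loops.

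The contact enrichment of loops at these genes had a median of 7.90 in ES cells, with a range of 1.86 to 21.1, where the median of all ES cell loops was 3.06. In epithelium the median was 2.41, with a range of 2.00 to 5.15, and in fiber cells 2.51, with a range of 1.90 to 5.37, where the medians of the lists were 3.05 and 2.83. With genes widened by 25 kb the medians were 5.14, 2.55 and 2.45. The anchors at these genes also differed in width, with 25 kb anchors at 5 of 16, 9 of 15 and 2 of 8 loops. Every ES cell value above 5 belonged to Meis1 and Meis2, while the Pknox2 loops had higher enrichment in epithelium than in ES cells, with intervals that overlapped.

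**Figure D5:**
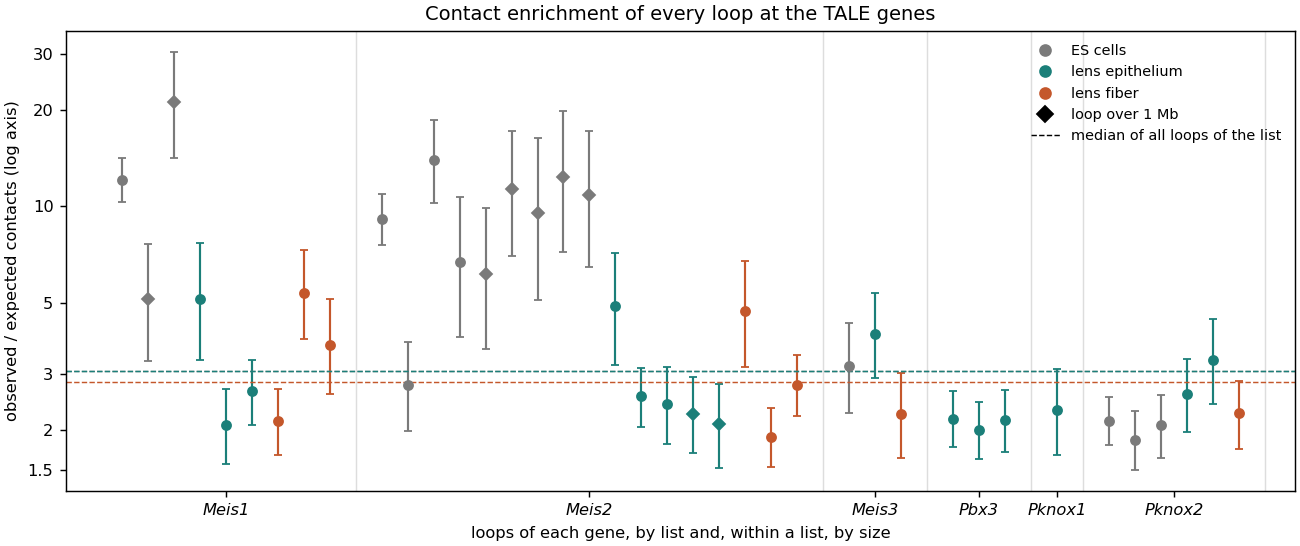
Observed over expected contacts (log axis) of every loop at the TALE genes, with 95% Poisson intervals, grouped by gene and ordered by size within each list. Diamonds are loops over 1 Mb and dashed lines are the medians of all loops of a list (3.06, 3.05 and 2.83). ES cell loops of Meis1 and Meis2 lie above those of both lens lists with few exceptions, and the loops of Pbx3, Pknox1 and Pknox2 lie near 2 to 3.3.

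TADs were listed at more of these genes in ES cells than in either lens list. In ES cells 7 of 8 members were touched by a TAD, all but Pbx4. In epithelium 2 were, Pbx3 and Pknox2, and in fiber cells 3, Meis1, Pbx3 and Pknox2. Over all genes these shares were 45.7%, 24.1% and 33.3%, so that both lens counts lay near the share of all genes. The shares were not split by gene length, unlike those for loops and peaks. A single TAD held Pbx3 in every list, of 675 kb in ES cells and 695 kb in both lens cell types, and its borders moved by no more than 25 kb between lists. At Pknox2 a TAD of 190 kb in ES cells and one of 180 kb in fiber cells began inside the gene, beside the place where the loops met. In epithelium the Pknox2 TAD spanned 345 kb and took in nearly the whole gene. Pbx2, Pknox1 and Meis3 were touched by TADs of 85, 135 and 95 kb in ES cells.

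In ES cells a TAD coincided with the gene at Meis1 and Meis2. The Meis1 TAD spanned 140 kb and its borders lay 5.43 kb outside the 3′ end and 4.65 kb inside the 5′ end. The Meis2 TAD spanned 200 kb and its borders lay 1.26 kb outside the 3′ end and 7.54 kb inside the 5′ end. Of genes of at least 100 kb, 2.55% in ES cells, 0.659% in epithelium and 1.44% in fiber cells had a TAD with both borders within 10 kb of the gene ends. Of the 4 long members this held for 2, 0 and 0. This rule too was chosen after the TADs of Meis1 and Meis2 had been seen. In fiber cells a TAD of 755 kb began 0.349 kb beyond the 5′ end of Meis1 and was counted through the widening alone. In epithelium the nearest TAD border was 5.35 kb beyond the gene, just outside the limit of 5 kb, so that no TAD was counted there.

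CTCF peaks were listed at 1 TALE gene in epithelium and at 4 in fiber cells. Epithelium had 2, both in Pknox2, and fiber cells had 9, with 6 in Pknox2 and 1 each at Meis1, Meis2 and Pbx4. Of the 4 long members, 1 had a peak in epithelium and 3 in fiber cells, beside 68.4% and 81.5% of genes of at least 100 kb. Of the 4 shorter members 0 and 1 had a peak, beside 28.2% and 44.0% of shorter genes. For so few genes the fiber counts were near these shares, and the epithelium counts were lower. The number of peaks per gene was not compared with that of all genes. Both epithelial peaks overlapped fiber peaks, and the other 7 fiber peaks were in the fiber list alone. The share of all peaks in 1 list alone was not computed, and the fiber list was the longer one. These counts therefore do not set the genes apart from others. In Pknox2 the peak near chr9:36968709-36969066 had a fold enrichment of 5.33 in epithelium and 5.29 in fiber cells. The peak at chr9:36916437-36916677 had 5.75 and 7.20. The peak with the highest fold enrichment in the fiber list at Pknox2, of 7.21, was at chr9:36970715-36971030 and had no counterpart in epithelium. The fiber peaks at Meis1, Meis2 and Pbx4 had fold enrichments of 3.92, 5.31 and 7.17. That of Meis1 lay 0.816 kb beyond the 5′ end by its summit, and that of Meis2 lay inside the gene, 105.2 kb from its 5′ end. Of the fiber peaks at these genes, 3 of 9 had a −log10 q above the list's median of 9.06, and 1 of 2 in epithelium exceeded 7.83.

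Further peaks lay just outside the limit. At the 3′ end of Meis2 a peak 5.22 kb from the gene in epithelium and 5.13 kb in fiber cells (chr2:115855805-115856132) sat inside the anchor of the loop between the gene ends. Its fold enrichment was 6.01 in epithelium and 10.7 in fiber cells, and in the latter its −log10 q exceeded that of 92.6% of all peaks. At Meis3 a peak 5.95 kb beyond the gene, with fold enrichments of 5.21 and 7.24, sat inside the near anchor of the loop to C5ar1.

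Few loops of the TALE genes were listed with CTCF at both anchors in either lens cell type, where the loops themselves were few. With the peaks of the same cell type, 0 of 15 epithelium loops had a peak at both anchors, 6 had one at 1 anchor and 9 had none. In fiber cells 1 of 8 loops had peaks at both anchors, 5 at 1 anchor and 2 at none. The loop with both was the Meis2 loop of 950 kb. Over all loops, 15.7% in epithelium (95% Wilson interval 14.9 to 16.5) and 39.1% in fiber cells (38.0 to 40.2) had peaks at both anchors. So few loops, several of which share an anchor, give no firm comparison with these shares. The count also depended on the peak list. With the fiber list, 3 of the 15 epithelium loops had peaks at both anchors, and with the epithelium list 0 of the 8 fiber loops did. No peak lay in either anchor of the loop between the ends of Meis1 in either lens list, and at Meis2 that loop had its peak at the 3′ anchor alone.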

How the data were processed

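Hi-C of lens fiber cells, lens epithelium and mouse ES cells (2 replicates each) and CTCF ChIP-seq of both lens cell types (1 sample each per the labels, where the methods of the study give 2 biological replicates, so that each peak list was treated as 1 sample), 8 samples in all, were analysed from the deposited lists. The authors aligned Hi-C reads with bwa-mem in the ENCODE pipeline, kept contacts at or above a mapping quality limit, merged replicates, and called loops (HiCCUPS) and TADs (Arrowhead) with Juicer Tools 2.13.06 at default settings. In the deposited loop lists, observed contacts are raw counts, expected contacts are a score computed by HiCCUPS, and FDR values are q-values. For CTCF the authors kept uniquely mapped, deduplicated reads and called peaks with MACS2, and the deposited peaks carry a fold enrichment and the −log10 of p and q. The labels name mm10, the build of the RefSeq gene table used here (GRCm38.p6). Merging and default calling leave no replicate error and tie each list to its own depth, and the read depth of the ChIP-seq samples was not used here.

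Overlaps of at least 1 bp, sizes between anchor midpoints, Wilson and exact intervals and shares over all genes were computed with Python 3.11.15, pandas 2.3.3, scipy 1.17.1 and numpy 2.4.6. Figures were made in matplotlib 3.10.9. The overlap rules were tested on simulated data. The genes, lists and rules were chosen with earlier results of these data known. Named genes were the members, protein-coding genes at the far anchor of loops over 1 Mb, in 2 or more lists or with a member's highest enrichment in a list, and 11 comparison genes (TALE relatives Tgif1, Tgif2, Mkx and Irx1 to Irx6, and Pax6 and Pbxip1). Alternatives changed the widening, the FDR and q limits, anchor widths, TAD sizes and the rule for shared loops. No test was run, since each list is 1 per cell type.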

Additional observations from a re-analysis of the deposited data

How the results depend on the processing

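Of 58 alternatives, 35 left the count within 1.5 times the reported one. With gene bodies widened by 25 kb, fiber loops rose from 8 to 16 and epithelium peaks from 2 to 5. With all 4 FDR values below 0.01, 5 fiber loops were left. Anchors of 5, 10 and 25 kb held 5, 6 and 5 ES cell loops, 2, 4 and 9 of epithelium, and 2, 4 and 2 of fiber cells. TADs of at least 200 kb numbered 2 in ES cells, and TADs holding a whole widened gene numbered 3, 1 and 1 in ES cells, the epithelium and fiber cells. The stronger 50% of each peak list left 1 peak in epithelium and 3 in fiber cells. Loops shared between epithelium and fiber cells became 9 within 25 kb, and requiring anchors to overlap left 2 epithelium and 1 fiber loop shared with ES cells. With the peak list of the other lens cell type, 3 epithelium and 0 fiber loops had a peak at both anchors.

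Other expected models, chosen after the data were seen, gave ES cell to lens ratios of 2.07 to 3.43 for the loops between the ends of Meis1 and Meis2, each above 1, with 1 of 12 outside the reported interval (3.43 for Meis1 against fiber cells).

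No paired analysis was possible because the authors merged both replicates into 1 list per cell type, and for the same reason no replicate could be left out. The intervals cover counting error only, and distal loops of 13 to 21 contacts are the least precise. Lists called at different depths differ in what they can detect.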

Other observations

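Other TALE genes had loops in the same lists. Of the 9 relatives (Tgif1, Tgif2, Mkx and Irx1 to Irx6), 7 had a loop in ES cells, 5 in epithelium and 5 in fiber cells, with 31, 14 and 10 loops. All 9 are shorter than 100 kb, and 35.5%, 33.0% and 31.2% of all such genes had a loop. A loop over 1 Mb was listed for 3, 2 and 0 of the relatives, and the share of shorter genes with one was not computed. Loops joining 2 Irx genes are counted once for each gene. Irx2 had the longest, in ES cells, of 31.9 Mb to Tfap2a and of 24.0 Mb to Barx1, with 16 and 22 contacts and enrichments of 20.2 and 20.9 (the far genes were named after their values were seen). Irx genes, which pattern the neural plate and heart, lie in clusters. A loop of Irx1 with Irx2 was in every list, with an enrichment of 12.1 at 5 kb anchors in ES cells, 3.97 at 10 kb anchors in epithelium and 2.36 at 25 kb anchors in fiber cells, so that the values were measured at unequal widths. At 25 kb anchors in every list, the loop of Irx5 with Fto, named afterwards, had 1.94, 2.64 and 2.81. Tgif1 had 2 loops in each lens list and 0 in ES cells, and Tgif2 had 0 in every list. CTCF peaks were listed at 1 of the 9 relatives in epithelium and at 3 in fiber cells, beside 28.2% and 44.0% of all genes below 100 kb.

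Pax6 had 4, 5 and 4 loops in ES cells, the epithelium and fiber cells. Its ES cell loops ran to Meis2, the HoxD cluster and Wt1 and over 50 kb nearby, while 2 lens loops in each list ran to Dcdc5, a neighbour also named afterwards. Pbxip1, whose product binds Pbx proteins, had 0 loops in every list and 1 CTCF peak, in fiber cells.

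The distal anchors of Meis2, picked because each carries an ES cell loop, were also in other loops, and their counts are a description of these anchors alone. The HoxD anchor was in 9 loops of the ES cell list, of which 7 spanned over 3 Mb, and in 1 loop of each lens list. The Nkx2-2 anchor was in 11, 2 and 1 loops of ES cells, the epithelium and fiber cells, the Wt1 anchor in 5, 0 and 0, the anchor at Ankrd63 and Plcb2 in 4, 0 and 0, and the Pax6 anchor in 2, 3 and 1. The 25 kb anchor of Meis2 itself was in 8, 4 and 2. Of the 315 loops over 3 Mb in the ES cell list, 4 had an anchor at Meis2, and of the 84 and 82 in epithelium and fiber cells, 0 had one at any TALE gene examined. The share of all genes with a loop over 3 Mb was not computed, so that these counts give no comparison of ES cells with the lens.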
